A study of Mus musculus with 8 samples.

Results

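The interferon-induced IFIT and OAS antiviral families were followed in mouse B lineage cells through 8 genes: Ifit1, Ifit2 and Ifit3, the synthetases Oas1a, Oas2 and Oas3, and the synthetase-like genes Oasl1 and Oasl2. Members were taken by gene symbol in the platform annotation, which gave each gene 1 probe set, so that the 8 genes are 8 of the 18193 genes with a probe set of their own, and 8 of the 45101 probe sets on the array. Total RNA of 8 samples was measured, 2 in each of 4 groups, with 1 Affymetrix expression array for each sample. The BCR-ABL1 GFP-positive and BCR-ABL1 GFP-negative groups were bone marrow cells with BCR-ABL1, the fusion kinase of chronic myeloid and some acute lymphoblastic leukaemias. The spleen GFP-positive and spleen GFP-negative groups were splenic B cells stimulated with LPS and IL4. Cells of all 4 groups carried a GFP reporter for AID, activation-induced cytidine deaminase, which starts class switching and somatic hypermutation in B cells. The question was which transcripts differ between cells with and without the reporter signal.

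Strain, age, the way the bone marrow cells acquired BCR-ABL1, the purification of the fractions and the settings by which the array software summarised and scaled the signals were not given in the sources used here. Nothing states that the 2 samples of a group came from separate animals or cultures, so p-values measure the spread between these samples, which may be technical. Because these are bulk samples, fewer cells of a type and less RNA per cell cannot be told apart.

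Cells that sense viral nucleic acid secrete type I interferon, which signals through the receptor chains Ifnar1 and Ifnar2, the kinases Jak1 and Tyk2, and a STAT complex with Irf9 that binds interferon-stimulated response elements in promoters. IFIT proteins bind viral RNA with foreign 5′ ends and block its translation. OAS proteins bind double-stranded RNA and make 2′-5′-linked oligoadenylates, which activate RNase L to degrade RNA. In the mouse, Oasl2 keeps this synthetase activity, while Oasl1 lacks it and is known to hold down translation of Irf7.

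To show what lies before these genes, RefSeq promoter windows of build GRCm38.p6 were searched on both strands for the core of the interferon-stimulated response element, written here as GAAA, any 2 bases, GAAA. Windows held 250 bases before and 50 bases after an annotated start. Of the 8 members, 7 had a window (Oas2 had none in the table), and 4 of these 7 held the core: Ifit1, Ifit3, Oas1a and Oas3. Of all 32851 windows of 300 bases, 3.44% held it, and counted by gene 3.99% of 27025 genes had a window that held it. The 170 bases before the start are shown 5′ to 3′ on the strand of the gene for these 4 members and, as a member without the core, for Oasl2. Capitals mark the core or its reverse complement. The stretches are chr19:34640719-34640888 (plus strand) for Ifit1, chr19:34583359-34583528 (plus) for Ifit3, chr5:120907526-120907695 (minus) for Oas1a, chr5:120777660-120777829 (minus) for Oas3 and chr5:114896764-114896933 (plus) for Oasl2.
Ifit1: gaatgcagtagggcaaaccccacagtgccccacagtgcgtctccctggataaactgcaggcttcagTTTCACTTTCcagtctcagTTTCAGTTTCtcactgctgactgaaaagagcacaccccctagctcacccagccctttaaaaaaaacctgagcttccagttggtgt
Ifit3: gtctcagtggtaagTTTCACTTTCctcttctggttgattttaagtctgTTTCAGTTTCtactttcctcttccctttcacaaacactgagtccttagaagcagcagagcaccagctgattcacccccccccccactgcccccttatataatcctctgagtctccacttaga
Oas1a: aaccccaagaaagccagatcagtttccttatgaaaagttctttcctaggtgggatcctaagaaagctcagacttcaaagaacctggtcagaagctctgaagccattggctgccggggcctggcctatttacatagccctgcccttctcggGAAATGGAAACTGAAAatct
Oas3: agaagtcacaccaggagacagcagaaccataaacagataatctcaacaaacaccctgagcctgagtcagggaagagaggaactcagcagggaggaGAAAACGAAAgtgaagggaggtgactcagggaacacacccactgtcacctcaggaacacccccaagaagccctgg
Oasl2: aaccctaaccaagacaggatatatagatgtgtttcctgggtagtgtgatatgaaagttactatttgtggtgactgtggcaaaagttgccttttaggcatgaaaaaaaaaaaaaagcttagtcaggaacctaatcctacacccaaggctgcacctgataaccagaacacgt
Ifit1 and Ifit3 each held 2 separate cores in the reverse orientation, and the letters of the matches were the same in both genes. In Ifit1 they lay 104 to 95 and 85 to 76 bases before the start, and in Ifit3 they lay 156 to 147 and 122 to 113 bases before it. Oas1a held 2 overlapping forward cores, 20 to 11 and 14 to 5 bases before the start, and Oas3 held 1 forward core, 75 to 66 bases before it. The Ifit3 stretch lies inside the span RefSeq gives the gene, which has an earlier start as well. The 2 Oas1a cores lie almost wholly inside the span of Oas1a, which ends at 120907544. The 170 bases before the start in 1 Ifit2 window lie inside the span of Ifit2. Those of the other Ifit2 window, Oas3, Oasl1 and Oasl2 lie partly inside the spans of their genes. No core was found in the 2 windows of Ifit2 or in those of Oasl1 and Oasl2, which says only that these letters are not in those windows. The motif TTCNNNGAA, the binding pattern of STAT dimers, was found in 1 window of Ifit2 and in that of Oas1a, and in 8.30% of all windows. A match is a description of the letters and was not tested for binding.

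**Figure D1:**
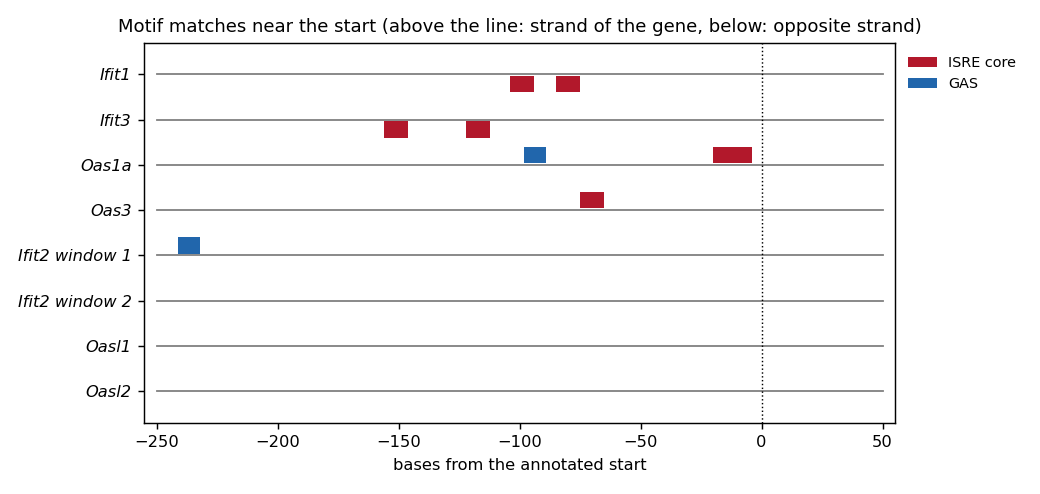
Motif matches in the promoter windows of 7 members, with bases from the annotated start on the horizontal axis. Red boxes are the interferon-stimulated response element core (ISRE core) and blue boxes TTCNNNGAA (GAS). Boxes above a line lie on the strand of the gene, and boxes below it on the opposite strand. Cores appear in Ifit1, Ifit3, Oas1a and Oas3.

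Values below are normalized signals, the deposited intensities after quantile normalization, in arbitrary units in which different genes cannot be set against each other. Differences are log2 values ± standard error from a limma fit to all 8 arrays, and a gene is called where its p, adjusted by Benjamini-Hochberg over the 12223 genes tested, was under 0.05. All 8 members passed the filter on low values, and none lay at the floor of 32 on any array. The number of arrays, 2 in a group, limits the precision: exact permutation of 2 arrays against 2 cannot give a two-sided p below 0.333, which leaves the calls to the model.

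The labelled cell types were checked against markers, and the spleen GFP-negative arrays stood apart. Of the 9 listed B cell markers, 8 had a probe set, and their summed signal was 35544 to 35946 in the BCR-ABL1 GFP-positive and 36375 to 36597 in the BCR-ABL1 GFP-negative group, 41045 to 42919 in spleen GFP-positive and 51266 to 51677 in spleen GFP-negative cells. The sum hides single markers: Ms4a1, which encodes CD20, averaged 38.7 ± 9.47 in BCR-ABL1 GFP-positive cells, with 1 of 2 arrays at the floor, and 510 ± 94.1 in BCR-ABL1 GFP-negative cells, beside 7376 and 8008 in spleen GFP-positive and GFP-negative cells. Cd22 averaged 215 and 736 in BCR-ABL1 GFP-positive and GFP-negative cells, beside 6129 and 4811 in the same spleen fractions. Both were called lower in GFP-positive BCR-ABL1 cells (-3.73 and -1.77 on the log2 scale). The other 6 B cell markers were not called there, and the part of Ms4a1 and Cd22 in the BCR-ABL1 results was not tested. Pax5, a B lineage transcription factor, was lowest in spleen GFP-negative cells, at 69.7 ± 19.9. It averaged 296 and 185 in BCR-ABL1 GFP-positive and GFP-negative cells, and 180 in spleen GFP-positive cells. Cd79b, Ms4a1, Ebf1 and Blk were highest in spleen GFP-negative cells, and Cd79a, Blnk and Cd22 were highest in other groups. The 7 pre-B markers summed to 33389 to 34235 in BCR-ABL1 GFP-positive, 30141 to 30978 in BCR-ABL1 GFP-negative, 1052 to 1436 in spleen GFP-positive and 6659 to 7299 in spleen GFP-negative cells. The spleen GFP-negative sum was mostly Il7r (4566) and Igll1 (1997). There Vpreb1 averaged 34.0, Dntt 167, Kit 126 and Rag1 56.5, and Rag2 lay at the floor. Igll1 averaged 538 and 598 in BCR-ABL1 GFP-positive and GFP-negative cells, below 847 and 1997 in the same spleen fractions. The 11 measured myeloid markers of 12 summed to 1013 to 1077 in BCR-ABL1 GFP-positive and 825 to 929 in BCR-ABL1 GFP-negative cells, with 7 and 8 of the 11 at the floor. They summed to 594 to 597 in spleen GFP-positive cells, with Csf1r, Camp, Ngp and Itgam at the floor, against 78115 to 80183 in spleen GFP-negative cells, with 0 at the floor. The 9 measured T and NK cell markers of 11 summed to 597 to 627 in BCR-ABL1 GFP-positive and 442 to 471 in BCR-ABL1 GFP-negative cells. Their sum was 761 to 797 in spleen GFP-positive and 14471 to 16112 in spleen GFP-negative cells. Among them Ncr1 lay at the floor in all 4 groups, and Gzma averaged 411 in spleen GFP-positive and 762 in spleen GFP-negative cells. In GFP-positive BCR-ABL1 cells 2 of the 8 tested T and NK markers and 0 of the 10 tested myeloid markers were called higher, beside 3.07% of all genes tested. Trimmed mean intensities before normalization were 479 and 500 on the spleen GFP-negative arrays and 591 to 596 on the other 6.

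GFP-positive BCR-ABL1 cells carried more RNA of 6 of the 8 members than GFP-negative BCR-ABL1 cells, and less of 0. Of all genes tested, 3.07% were called higher and 2.30% lower in this comparison. Oas3 differed most, 4.56-fold, followed by Ifit1, Ifit3, Oasl1 and Oasl2 at 2.59-, 2.52-, 2.39- and 2.32-fold, and Oas1a at 1.82-fold. The folds of Oas3, Oasl1 and Oasl2 rest on BCR-ABL1 GFP-negative signals near the floor. Ifit2 and Oas2 were not called. The median log2 difference of the 8 members was 1.24, beside 0 for all genes tested. The spleen GFP-negative arrays bear on this comparison through the shared normalization and spread, and a fit without them, chosen after seeing the data, also called 6 members higher and 0 lower. Plasmacytoid dendritic cell markers, which mark the classical interferon-producing cell, summed to 656 to 664 in BCR-ABL1 GFP-positive and 609 to 647 in BCR-ABL1 GFP-negative cells over 4 genes. Most of these sums came from Klk1, at 466 and 421 in the same groups. Cox6a2 averaged 89.3 and 105, and Siglech (65.5 and 58.6) and Ccr9 (39.3 and 43.1) were near the floor. The part of these markers in the result was not tested.

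In stimulated splenic cells the members divided. Oas1a, Oas3 and Oasl1 were higher in GFP-positive than in GFP-negative cells, Ifit2 and Ifit3 were lower, and Ifit1, Oas2 and Oasl2 were not called. In this comparison 45.7% of all genes tested were called higher and 31.4% lower, so 3 higher and 2 lower of 8 were close to the background. The median log2 difference was -0.028 for the members and 0.18 for all genes tested. The myeloid and the T and NK markers given above moved with this comparison, and their part in it was not tested.

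**Figure D2:**
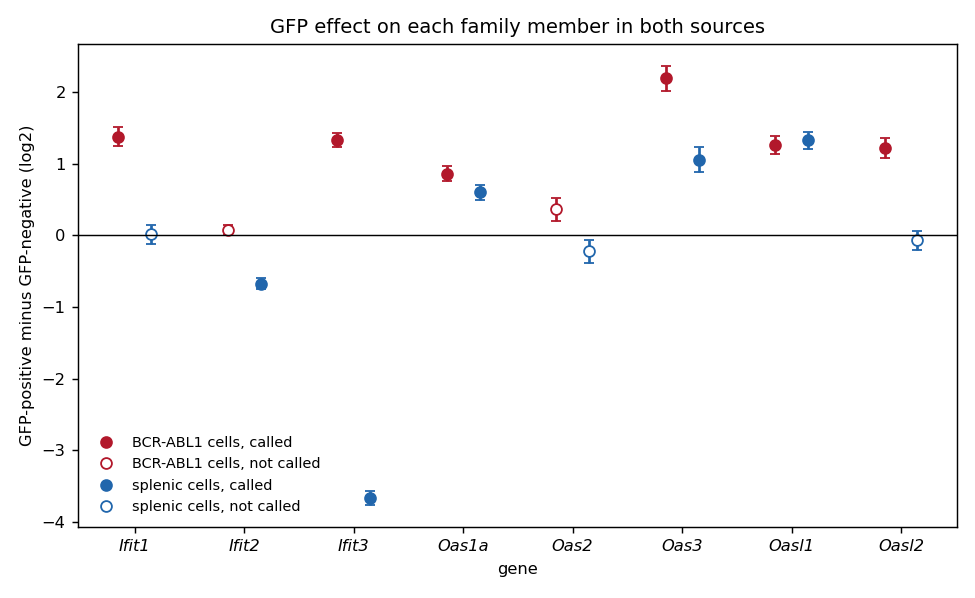
GFP effect on each of the 8 members, as the log2 difference GFP-positive minus GFP-negative on the vertical axis. Red points are BCR-ABL1 cells and blue points splenic cells, error bars are standard errors of the limma fit, and open points were not called. The red points lie above 0 throughout, while Ifit3 in splenic cells lies at -3.66.

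Among the IFIT genes, Ifit1, which binds viral RNA lacking the host's cap methylation, had signals of 197 and 184 in BCR-ABL1 GFP-positive cells, against 82.0 and 66.0 in BCR-ABL1 GFP-negative cells. It had 1356 and 1315 in spleen GFP-positive cells, against 1403 and 1250 in spleen GFP-negative cells. The fractions were separate in BCR-ABL1 cells and overlapped in spleen. In BCR-ABL1 cells Ifit1 rose by 1.37 ± 0.13 (adjusted p = 0.000838, limma), and in spleen the difference was 0.012 ± 0.13 (adjusted p = 0.943, limma). The GFP effect was larger in BCR-ABL1 cells than in spleen by 1.36 on the log2 scale (adjusted p of the interaction = 0.000265, limma). Levels were lowest in the BCR-ABL1 GFP-negative and next in the BCR-ABL1 GFP-positive group, followed by both spleen groups, which did not differ beyond their spread.

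Ifit2, an RNA-binding member that protects mice from neurotropic viruses, had the smallest fold range between the groups among the members. Its signals were 894 and 850 in BCR-ABL1 GFP-positive cells, against 823 and 836 in BCR-ABL1 GFP-negative cells. They were 991 and 1004 in spleen GFP-positive cells, against 1629 and 1555 in spleen GFP-negative cells. The 2 spleen GFP-negative arrays were the highest of the 8. The difference was 0.071 ± 0.074 in BCR-ABL1 cells (adjusted p = 0.832, limma), and Ifit2 fell by 0.67 ± 0.074 in spleen GFP-positive cells (adjusted p = 4.40e-05, limma). The spleen call was lost where every array was set to the same median over all probe sets (-0.11, adjusted p = 0.279). From low to high came the BCR-ABL1 GFP-negative and then the BCR-ABL1 GFP-positive group, and after them spleen GFP-positive and spleen GFP-negative cells. Neither of the first 2 steps in that order was called, although no groups overlapped.

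Ifit3, which in human cells stabilises IFIT1 on RNA, had the largest difference between its GFP effects among the members. Its signals were 593 and 631 in BCR-ABL1 GFP-positive cells, against 228 and 259 in BCR-ABL1 GFP-negative cells. They were 429 and 455 in spleen GFP-positive cells, against 5480 and 5712 in spleen GFP-negative cells. The spleen GFP-negative arrays were far above the other 6, and no groups overlapped. Ifit3 rose by 1.33 ± 0.096 in GFP-positive BCR-ABL1 cells (adjusted p = 0.000195, limma) and fell by 3.66 ± 0.096, or 12.7-fold, in GFP-positive splenic cells (adjusted p = 1.68e-08, limma). The 2 effects differed by 4.99 on the log2 scale (adjusted p of the interaction = 8.93e-08, limma). Ifit3 was the single member with a higher level in BCR-ABL1 GFP-positive than in spleen GFP-positive cells. Near-identical mouse copies exist for Ifit3 (Ifit3b) and Oas1a (Oas1g), and whether the probe sets also read the copy was not tested.

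**Figure D3:**
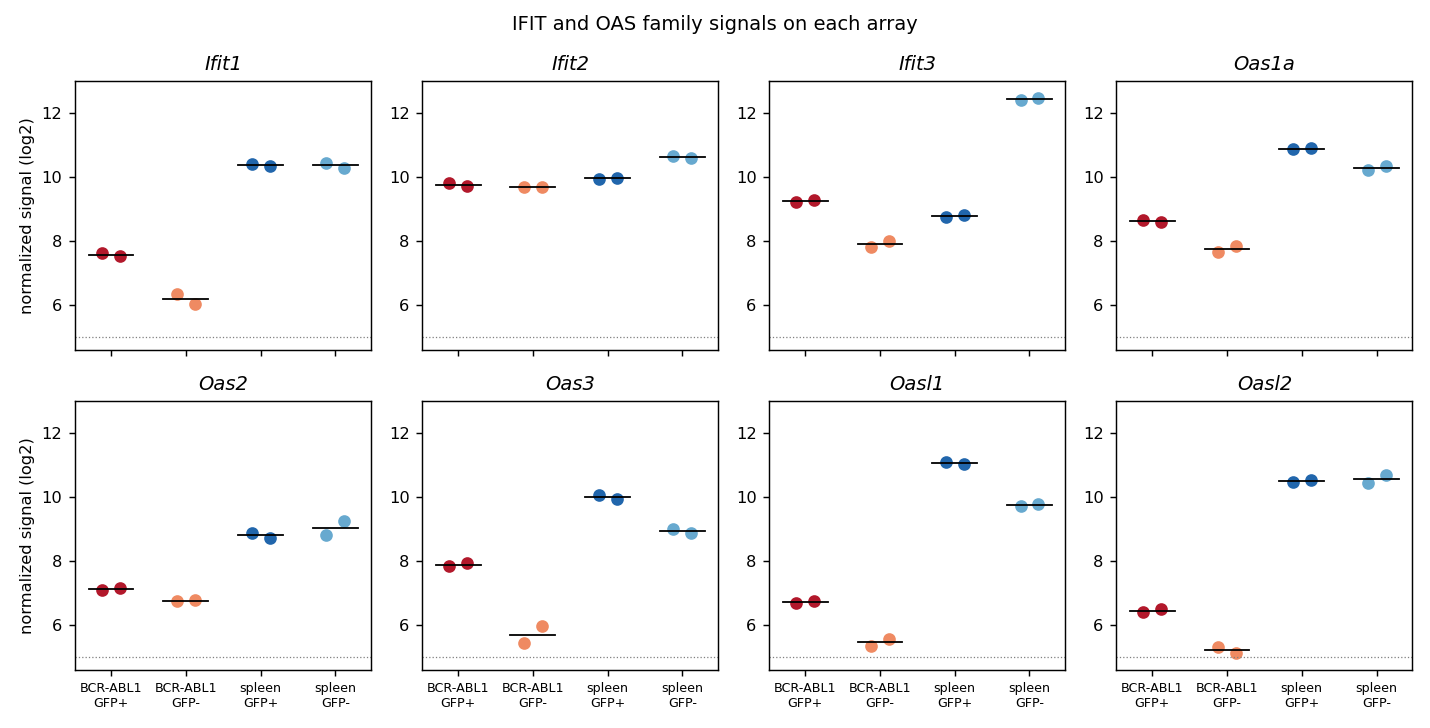
Normalized signal (log2) of each member on each of the 8 arrays, 1 panel for each gene. Points are arrays, horizontal lines are group means, and the dotted line is the floor of 32. Ifit3 separates the spleen GFP-negative arrays from the other 6, while Ifit1, Oas2 and Oasl2 overlap between the spleen fractions.

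The synthetase Oas1a, the mouse counterpart of human OAS1, had signals of 402 and 390 in BCR-ABL1 GFP-positive cells, against 204 and 233 in BCR-ABL1 GFP-negative cells. It had 1890 and 1918 in spleen GFP-positive cells, against 1204 and 1312 in spleen GFP-negative cells. GFP-positive arrays were above GFP-negative arrays in both sources. Oas1a rose by 0.86 ± 0.10 in BCR-ABL1 cells (adjusted p = 0.00211, limma) and by 0.60 ± 0.10 in spleen (adjusted p = 0.000611, limma). The difference between these effects, 0.26, was not called (adjusted p = 0.132, limma). The 4 groups did not overlap and ran from BCR-ABL1 GFP-negative through BCR-ABL1 GFP-positive and spleen GFP-negative to spleen GFP-positive.

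Oas2 had signals of 137 and 141 in BCR-ABL1 GFP-positive cells, against 107 and 109 in BCR-ABL1 GFP-negative cells. It had 468 and 421 in spleen GFP-positive cells, against 447 and 602 in spleen GFP-negative cells. The BCR-ABL1 fractions did not overlap, whereas the spleen fractions did, with 1 spleen GFP-negative array above the other 3. Neither GFP effect was called, at 0.36 ± 0.16 in BCR-ABL1 cells (adjusted p = 0.327, limma) and -0.22 ± 0.16 in spleen (adjusted p = 0.219, limma). The difference between them, 0.59, was called (adjusted p = 0.0432, limma), and it was lost under 11 of the 21 alternatives, among them leaving out either array of any group but the spleen GFP-negative one. The spleen effect was called in opposite directions under 2 alternatives: lower in GFP-positive cells without spleen GFP-negative replicate 1 (-0.44, adjusted p = 0.00940), and higher with equal medians over all probe sets (0.48, adjusted p = 0.00875).

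Oas3, the long synthetase with several repeats of the OAS unit, had signals of 226 and 246 in BCR-ABL1 GFP-positive cells, against 43.2 and 62.0 in BCR-ABL1 GFP-negative cells. It had 1052 and 965 in spleen GFP-positive cells, against 504 and 468 in spleen GFP-negative cells. GFP-positive cells were higher in both sources without overlap. Oas3 rose by 2.19 ± 0.17 in BCR-ABL1 cells (adjusted p = 0.000281, limma) and by 1.05 ± 0.17 in spleen (adjusted p = 0.000567, limma). BCR-ABL1 GFP-negative signals of Oas3 were near the floor, and with log2 of the value plus 32 its BCR-ABL1 rise was 1.67. The GFP effect was larger in BCR-ABL1 cells than in spleen by 1.14 (adjusted p of the interaction = 0.00335, limma), and with equal medians over all probe sets by 0.64, which was not called (adjusted p = 0.0576). The groups ran in the same order as for Oas1a.

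Oasl1 had signals of 103 and 108 in BCR-ABL1 GFP-positive cells, against 40.7 and 47.6 in BCR-ABL1 GFP-negative cells. It had 2176 and 2087 in spleen GFP-positive cells, against 830.4 and 872 in spleen GFP-negative cells. The groups did not overlap and again ran in the order given for Oas1a. Oasl1 rose by 1.26 ± 0.12 in BCR-ABL1 cells (adjusted p = 0.000784, limma) and by 1.32 ± 0.12 in spleen (adjusted p = 1.35e-05, limma), and the difference of -0.065 was not called (adjusted p = 0.748, limma). That difference was called, with the smaller effect in BCR-ABL1 cells, with a floor of 64 (-0.61, adjusted p = 0.00311) and under 3 other alternatives. The BCR-ABL1 rise of Oasl1 itself was 0.72 with a floor of 64, and it was still called.

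Oasl2 had signals of 84.4 and 89.8 in BCR-ABL1 GFP-positive cells, against 39.99 and 35.1 in BCR-ABL1 GFP-negative cells. It had 1396 and 1461 in spleen GFP-positive cells, against 1363 and 1647 in spleen GFP-negative cells. The fractions were separate in BCR-ABL1 cells and overlapped in spleen, as for Ifit1. Oasl2 rose by 1.22 ± 0.14 in BCR-ABL1 cells (adjusted p = 0.00169, limma), and its spleen difference was -0.069 ± 0.14 (adjusted p = 0.657, limma). The effects differed by 1.28 (adjusted p of the interaction = 0.000407, limma). BCR-ABL1 GFP-negative signals of Oasl2 were near the floor, and with a floor of 64 the BCR-ABL1 difference was 0.44 and not called (adjusted p = 0.0855).

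After quantile normalization the GFP effect thus differed between the sources for 6 of the 8 members, Ifit1, Ifit2, Ifit3, Oas2, Oas3 and Oasl2, each with the higher value in BCR-ABL1 cells. With equal medians over all probe sets 3 of these calls held, those of Ifit1, Ifit3 and Oasl2, while Ifit2, at 0.75 after quantile normalization (adjusted p = 0.000286, limma), was at 0.21 (adjusted p = 0.176, limma), and the calls of Oas3 and Oas2 were lost as well. The Oas2 call was also lost on the deposited scale and with the replicate number as a block (adjusted p = 0.0593). In the interaction, 28.0% of all genes tested were called higher and 41.0% lower. The median of the members was 0.94, beside -0.18 for all genes tested. The GFP effects are differences within a source, and the interaction shares its arrays with both of them.

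How the spleen arrays were scaled against each other moved the spleen GFP effects. Over all genes tested the median spleen difference was 0.18 after quantile normalization and 0.39 on the deposited scale. It was 0.55 with equal medians over all probe sets and -0.078 with equal medians over the probe sets tested, the last chosen after seeing the data. The share of calls that were higher was 59.2%, 69.0%, 75.1% and 47.0% under these settings. Ifit1 was at 0.012 after quantile normalization, at 0.46 on the deposited scale and at 0.61 with equal medians over all probe sets, and it was called higher on both of these other scales. Oasl2, at -0.069 after quantile normalization, was called higher on the deposited scale (0.34) and with equal medians over all probe sets (0.50). Oas2, at -0.22 after quantile normalization, was at 0.32 on the deposited scale, which was not called, and was called higher with equal medians over all probe sets (0.48). Ifit3 lay between -3.95 and -3.31 and Oasl1 between 1.33 and 1.98 under the 3 other scalings, so the direction of these members did not depend on the choice, nor did that of Oas1a (0.55 to 1.20) or Oas3 (1.12 to 1.77). On the spleen GFP-negative arrays the deposited intensity of the 5′ Gapdh control probe set was 6603 and 6834, against 9960 to 10754 on the other 6 arrays. The 3′ Gapdh probe set gave 12770 and 12845, against 14678 to 15100. The 5′ beta-actin control probe set gave 9431 and 9948 on the spleen GFP-negative arrays, against 9424 to 10602 on the other 6. The 3′ beta-actin probe set gave 14460 and 14817, against 12748 to 13803. The part of RNA quality in the spleen differences was not tested.

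**Figure D4:**
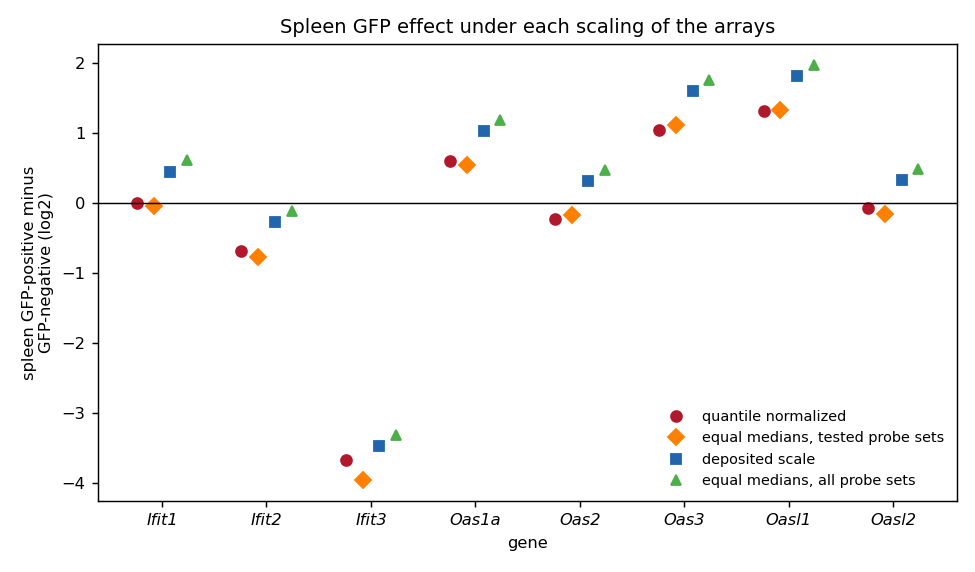
Spleen GFP effect on each member, as the log2 difference GFP-positive minus GFP-negative, under 4 scalings of the arrays. Red circles are quantile normalized values, orange diamonds equal medians over tested probe sets, blue squares the deposited scale and green triangles equal medians over all probe sets. Oas2 and Oasl2 change side, from -0.22 and -0.069 after quantile normalization to 0.48 and 0.50 with equal medians over all probe sets. Ifit1 lies at -0.033 with equal medians over tested probe sets and above 0 under the other scalings, up to 0.61. Ifit3 stays below 0, and Oas1a, Oas3 and Oasl1 stay above 0.

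Set against the same GFP fraction of spleen, BCR-ABL1 cells had lower levels of most members. Among GFP-positive cells, 6 members were lower in BCR-ABL1 than in spleen, Ifit3 was higher and Ifit2 was not called, where 24.8% of all genes tested were called higher and 25.5% lower. Oasl1 and Oasl2 were 20.2- and 16.4-fold lower, at -4.34 ± 0.12 and -4.04 ± 0.14 on the log2 scale. Ifit1, Oas1a, Oas3 and Oas2 differed by -2.81, -2.27, -2.09 and -1.68. Ifit3 was higher by 0.47 ± 0.096 (adjusted p = 0.00375, limma). Ifit2 differed by -0.20 (adjusted p = 0.0571, limma) and was called lower under 10 of the 23 alternatives, among them the fit without the spleen GFP-negative arrays (-0.19, adjusted p = 0.0191).

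Among GFP-negative cells, 8 of the 8 members were lower in BCR-ABL1 than in spleen, where 45.7% of all genes tested were called higher and 32.8% lower. Oasl2 was 39.97-fold lower, Ifit3 23.0-fold, Oasl1 19.3-fold, Ifit1 18.0-fold and Oas3 9.39-fold. Oas1a, Oas2 and Ifit2 were 5.77-, 4.80- and 1.92-fold lower. The folds of Oasl2, Oasl1 and Oas3 rest on BCR-ABL1 GFP-negative signals near the floor, with both arrays of Oasl2 and Oasl1 below the filter level of 51.0. With log2 of the value plus 32 these differences were -4.46, -3.54 and -2.62, against -5.32, -4.27 and -3.23 on the log2 scale. The median log2 difference of the members was -3.70, beside 0.16 for all genes tested, and -2.18 beside -0.046 among GFP-positive cells. Cell source, BCR-ABL1 and the LPS and IL4 stimulation cannot be told apart in these comparisons. The other cell type markers moved with the GFP-negative comparison as well: 10 of the 10 tested myeloid and 8 of the 8 tested T and NK markers were lower in BCR-ABL1 than in spleen GFP-negative cells, with the sums given above, and their part in the members' differences was not tested.

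Across the 8 arrays the members did not follow 1 pattern. Pearson correlations of log2 signal over the 28 pairs of members ran from 0.45, for Ifit3 with Oas3, to 1.00, for Oas1a with Oasl1. Ifit2 and Ifit3 followed each other (0.95) and correlated with the other 6 at 0.45 to 0.80, while the other 6 correlated with each other at 0.87 or more. These correlations rest on 4 groups and share the arrays and their normalization. The genes whose signal was most like the mean of the members were Rnase6 (r = 0.999) and Parp14 (r = 0.999) among 10, with r of at least 0.995 over 8 arrays. Rnase6, a secreted ribonuclease, averaged 229.8 ± 4.996 in BCR-ABL1 GFP-positive and 116 ± 7.68 in BCR-ABL1 GFP-negative cells. In spleen it averaged 1142 ± 51.6 in GFP-positive and 1731 ± 75.6 in GFP-negative cells (SD, n = 2 each). The single gene most like Ifit1 was Slc49a4, and those most like Ifit2 and Ifit3 were Pacs1 and Trio. For Oas1a it was H2-DMa, a chaperone chain of peptide loading on MHC class II, for Oas2 Ppp2r3c, for Oas3 Mob3a, for Oasl1 the death receptor Fas and for Oasl2 the chemokine receptor Cxcr5. Their r ran from 0.990 to 0.999.

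Other genes of the families gave values for 4 of 10. Ifit1bl1, a mouse relative of Ifit1, had GFP effects of the same signs as Ifit3, although its groups ran in another order. It averaged 2298 ± 48.7 in BCR-ABL1 GFP-positive and 1458 ± 55.3 in BCR-ABL1 GFP-negative cells, and 448 ± 11.8 in spleen GFP-positive and 1928 ± 116 in spleen GFP-negative cells (SD, n = 2 each). It rose by 0.66 in BCR-ABL1 cells (adjusted p = 0.00190, limma) and fell by 2.10 in spleen (adjusted p = 6.52e-08, limma). Oas1b, whose intact form gives mice resistance to flaviviruses, and Oas1e fell in spleen by 1.46 and 0.71 and were not called in BCR-ABL1 cells. The 3 falls among 4 genes in spleen stand beside 31.4% of all genes tested called lower there. The spleen call of Oas1e was lost under 6 alternatives, among them the deposited scale and leaving out spleen GFP-positive replicate 1 or spleen GFP-negative replicate 2. Oas1c was called in neither source. In the RNase L arm, 2 of 3 genes were measured. Abce1, an inhibitor of RNase L, and Pde12, which degrades the oligoadenylates, were not called in BCR-ABL1 cells (0.043 and -0.017), and rose by 0.40 and 2.17 in GFP-positive splenic cells. Abce1 turned to a call in the other direction when its probe sets were averaged.

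The genes upstream of the families were taken from lists of the interferon pathway, whose counts stand beside 3.07% of all genes tested called higher and 2.30% lower in BCR-ABL1 cells, and 45.7% higher and 31.4% lower in spleen. Of 10 ligands, 8 had a probe set and 2 passed the filter. Neither was called in BCR-ABL1 cells, and in spleen Ifna1 fell by 0.82 (86.5 ± 8.95 in spleen GFP-positive and 153 ± 14.7 in spleen GFP-negative cells). Of the 6 receptor chains, Ifnar1 rose by 0.40 in BCR-ABL1 cells and the other 5 were not called. The Ifnar1 call in BCR-ABL1 cells was lost under 12 alternatives, among them leaving out any of the 4 BCR-ABL1 arrays. In spleen Ifnar2 rose by 0.46 and the other 5 fell, Ifnar1 by 0.68 and Ifngr1, a chain of the interferon gamma receptor, by 2.14. Of 11 measured kinases and transcription factors, 4 rose and 0 fell in BCR-ABL1 cells: Irf7, the factor that amplifies interferon production (1.00), Stat2 (0.54), Irf9 (0.50) and Irf1 (0.33). Without any 1 of the 4 BCR-ABL1 arrays 1 or 2 of them were called, and 3 were in the fit without the spleen GFP-negative arrays. In spleen 2 rose, Stat2 (0.41) and Irf8 (0.52), and 8 fell, with Irf7 at -0.97, Irf9 at -0.85 and Jak2 at -1.36. Under the alternatives run, 2 to 4 rose and 5 to 9 fell in spleen.

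Of the 3 inhibitors, Usp18, which restrains signalling at Ifnar2, averaged 894 ± 50.6 in BCR-ABL1 GFP-positive and 310 ± 0.22 in BCR-ABL1 GFP-negative cells (SD, n = 2 each). It rose by 1.53 there and by 0.36 in spleen. Socs3, a suppressor of cytokine signalling, rose by 0.77 in BCR-ABL1 cells and by 2.87 in spleen. Its relative Socs1 was not called in BCR-ABL1 cells (-0.15), and in spleen it was at least 2.88-fold higher in GFP-positive cells, since the GFP-negative arrays lay at the floor. Of 13 nucleic acid and LPS sensors and their adaptors, 5 rose and 0 fell in BCR-ABL1 cells: Tlr7, an endosomal sensor of single-stranded RNA (1.27), Ifih1 (0.92), Dhx58 (0.81), Ddx58 (0.44), which are the cytosolic RNA sensors MDA5, LGP2 and RIG-I, and Zbp1 (0.37). Leaving out any 1 BCR-ABL1 array left 1 or 2 of these calls, leaving out spleen GFP-positive replicate 1 or 2 left 2 or 3, and the fit without the spleen GFP-negative arrays had 4. In BCR-ABL1 cells 3.07% of all genes tested were called higher and 2.30% lower. In spleen 8 of the 13 rose and 2 fell, beside 45.7% and 31.4% of all genes, with Ifih1 at 2.62, Tlr7 at 1.495, Ddx58 at -0.72 and the DNA sensor Cgas at -3.12.

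Of 29 other interferon-induced effectors, 10 rose and 1, Samhd1, fell in BCR-ABL1 cells, beside 3.07% and 2.30% of all genes tested. The largest rises were of Iigp1, an immunity-related GTPase (1.91), Ifitm3, a membrane protein that blocks virus entry (1.12), and Rsad2, the antiviral enzyme viperin (0.91). The fit without the spleen GFP-negative arrays called 11 higher and 1 lower. Mx1 was not called in BCR-ABL1 cells (0.48, adjusted p = 0.119, limma), nor was Mx2 (0.66, adjusted p = 0.0588, limma). In spleen 13 of the 29 rose and 9 fell, which is close to the 45.7% and 31.4% of all genes tested. Iigp1 was at 5.43, Gbp2 at 1.80, Ifitm3 at -0.47 and Rsad2 at -1.56 there. Under the alternatives run, 12 to 19 rose and 5 to 12 fell in spleen. With equal medians over all probe sets the spleen calls of Ifnar1, Ddx58 and Ifitm3 were lost. The median of the list was 0.25 in BCR-ABL1 cells and 0.12 in spleen, beside 0 and 0.18 for all genes tested.

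**Figure D5:**
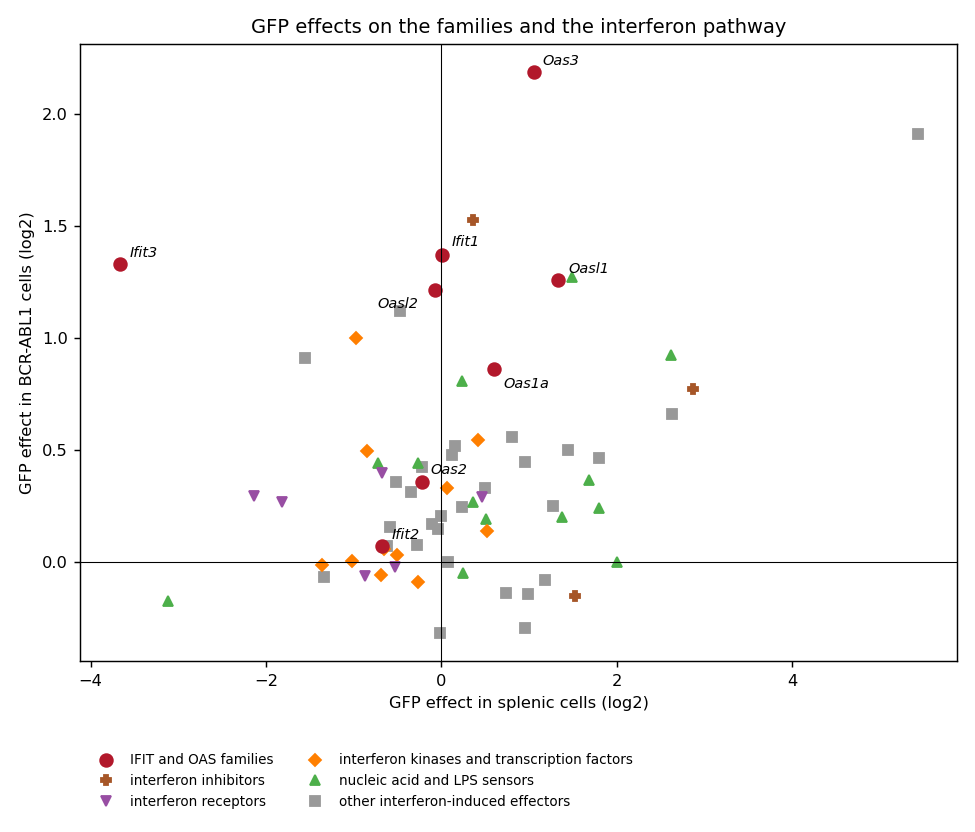
GFP effects on the 8 members (red circles) and on the tested genes of 5 interferon pathway lists (other symbols), each as the log2 difference GFP-positive minus GFP-negative. The vertical axis is BCR-ABL1 cells and the horizontal axis splenic cells. Oas3 has the highest BCR-ABL1 value plotted (2.19), Ifit3 the lowest splenic value (-3.66) and the effector Iigp1 the highest splenic value (5.43).

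The genes next to the clusters were read as well, in the gene order of GRCm38.p6. The Ifit genes on chromosome 19 lie between Lipa and Slc16a12, and on chromosome 5 the Oas cluster lies between Dtx1 and Rph3a and the Oasl pair between 4930519G04Rik and 2210016L21Rik. Of these 6 flanking genes, 3 passed the filter. In BCR-ABL1 cells none of the 3 was called, at 0.22 for Lipa, -0.16 for Dtx1 and -0.046 for 2210016L21Rik (adjusted p of 0.402, 0.824 and 0.964, limma). With 3.07% of all genes tested called higher and 2.30% lower there, 3 genes are too few to read this as a difference from the members. Dtx1 averaged 35.4 in BCR-ABL1 GFP-positive and 39.9 in BCR-ABL1 GFP-negative cells, near the floor and below the filter level of 51.0. In spleen Lipa fell by 1.296 and Dtx1 by 0.65, and 2210016L21Rik was not called (0.10, adjusted p = 0.360, limma), where 31.4% of all genes tested were called lower.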

How the data were processed

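The authors deposited 1 linear signal intensity for each of 45101 probe sets and 8 arrays. The arrays were processed with GCOS 1.3, per the submitters' processing notes. Trimmed means (2%) differed between arrays by a ratio of up to 1.24, so intensities were quantile normalized, values under the floor of 32 were set to 32 and log2 was taken. Of 45037 probe sets that are not controls, 34945 had 1 gene symbol, 932 several and 9160 none. A filter at the 40th percentile of the mean log2 signal (5.67, or 51.0 on the linear scale) removed dim probe sets, and the brightest remaining probe set with 1 symbol stood for a gene.

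limma 3.58.1 (lmFit, contrasts.fit, eBayes with trend) in R 4.3.3 fitted 1 mean for each of the 4 groups to all 8 arrays, with 4 residual degrees of freedom, and was tested on simulated data. Comparisons were GFP-positive against GFP-negative in either source, the interaction of the 2, and BCR-ABL1 against spleen within each fraction. Genes named are the members, genes of the pathway and marker lists, the genes whose log2 signal over the arrays was most like that of the members, and the flanking genes. Members and lists were chosen with earlier results of these data known. Alternatives changed the scaling, floor, filter, probe set choice, variance model or arrays, or added a replicate block. The fit without the spleen GFP-negative arrays and equal medians over the tested probe sets were chosen after seeing the data. The reporter gene, and list genes that share or lack a probe set, are not analysed here.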

Additional observations from a re-analysis of the deposited data

Results flagged for a closer look

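For 6 members the GFP effect differed between BCR-ABL1 and splenic cells by the interaction of the limma fit. The difference (BCR-ABL1 minus spleen, log2) was 1.36 for Ifit1, 0.75 for Ifit2, 4.99 for Ifit3, 0.59 for Oas2, 1.14 for Oas3 and 1.28 for Oasl2. For Ifit3 the 2 effects had opposite signs and both were called. For Ifit1, Oasl2 and Oas3 the BCR-ABL1 effect was called higher, and of these the spleen effect was called for Oas3. For Ifit2 the spleen effect was called lower and the BCR-ABL1 effect was not called, and for Oas2 neither effect was called on its own. With equal medians over all probe sets the calls for Ifit2, Oas2 and Oas3 were lost. Each of these differences uses the spleen GFP-negative arrays, which hold the myeloid and the T and NK markers, and the part of those markers was not tested.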

How the results depend on the processing

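The BCR-ABL1 count of 6 members higher and 0 lower stayed at 6 and 0 under all alternatives run except a floor of 64, which lost Oasl2. The number of genes called in that comparison, 656, ran from 209 to 824 when 1 array was left out, and was 225 and 209 without BCR-ABL1 GFP-positive replicates 1 and 2 and 235 and 242 without BCR-ABL1 GFP-negative replicates 1 and 2. With all probe sets in place of genes, 21129 were called for the spleen GFP effect, 18864 for the interaction, and 11900 and 21322 for BCR-ABL1 against spleen among GFP-positive and GFP-negative cells. In spleen, 5 members were higher on the deposited scale and 6 with equal medians over all probe sets, where 1 was lower. In the interaction, 3 members were higher with equal medians over all probe sets, and 1 was lower there, on the deposited scale, with a floor of 64 and with log2 of the value plus 32. Against quantile normalization, directions turned for Oasl2 in spleen (0.34 deposited, 0.50 equal medians), for Oas2 in spleen (0.32 and 0.48), for Oas2 in the interaction (-0.077 with equal medians) and for Oas1a in the interaction (-0.14 and -0.28). With equal medians over the tested probe sets they turned for Ifit1 in spleen (-0.033) and Oasl1 in the interaction (0.020). The replicates share only a number, and deviations of same-numbered arrays correlated at 0.13 to 0.29. The replicate block gave 715, 9766, 8835, 6730 and 9952 genes called in the 5 comparisons. It lost the interaction of Oas2 (adjusted p = 0.0593) and called Ifit2 lower in BCR-ABL1 among GFP-positive cells (adjusted p = 0.0457), and it changed no other call of a member. The cause of these changes was not tested. Members near the floor in BCR-ABL1 GFP-negative cells, Oas3, Oasl1 and Oasl2, have differences limited by signal over background.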
